A study of Mus musculus with 10 samples.

Results

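The choroid plexus epithelium genes described here are Ttr, Enpp2, Sostdc1, Aqp1, Slc4a5, Clic6, Kl, Folr1, Prlr and Otx2, which mark the epithelial cells of the choroid plexus in the brain. They were taken by gene name from the gene count table, which held all 10 of them among 54532 genes. All 10 also passed the filter on low counts, which kept 17665 genes. RNA was sequenced from the brain of 10 mice, 6 given FTY720 and 4 given placebo. Every mouse was labelled as a homozygous Slc20a2 knockout, written Slc20a2-HO, so no wild-type level is available in these data. Per the study's methods, the allele was Slc20a2 tm1a(EUCOMM)Wtsi and the mice came from intercrosses of heterozygotes. FTY720 (fingolimod), a modulator of sphingosine-1-phosphate receptors, was injected into the peritoneum at 0.5 mg/kg in DMSO, and the placebo mice received DMSO alone. Injections began at the age of 1.5 months and continued for 12 weeks. Each mouse is named by its treatment (F or P), a digit, 1 or 3, and a mouse number, and the labels do not say what the digit means. F3-612 and P3-612 share the number 612. FTY720 mice were F1-622, F1-624, F1-918, F3-609, F3-612 and F3-908, and placebo mice were P1-623, P3-612, P3-904 and P3-907. The digit 1 mice therefore held 3 FTY720 mice and 1 placebo mouse, and the digit 3 mice held 3 of each.

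The choroid plexus lies in the brain ventricles, where a single sheet of epithelial cells around leaky capillaries secretes the cerebrospinal fluid. Its cells move sodium, bicarbonate, chloride and water into the ventricle, take up folate and hormones from blood, and release carrier proteins and growth factor antagonists into the fluid. The epithelium is also known as a site of Slc20a2, which encodes the phosphate importer PiT-2, and of the Klotho protein, which acts in phosphate regulation by FGF23. Several of the 10 genes are not exclusive to it: Enpp2 is also made by oligodendrocytes, Otx2 by cells of the midbrain and thalamus, and Prlr and Kl by some neurons.

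Libraries held 14772745 to 18303981 counts assigned to genes. Slc20a2 itself had 89 to 294 counts in every mouse, so transcript of the targeted locus remained, and with no wild-type mouse its level does not check the genotype. CPM here are counts scaled to the library total times its TMM factor, which adjusts for the makeup of the library and was 0.956 to 0.975 in the digit 1 mice and 1.01 to 1.04 in the digit 3 mice. The digits separated the libraries by brain region: Gabra6, a GABA receptor subunit of cerebellar granule cells, ranged from 0.0589 to 0.239 CPM among the digit 1 mice and from 130 to 171 CPM among the digit 3 mice, and Hoxb5, a hindbrain gene, had no count in any digit 1 mouse. The summed level of 9 cerebellar and hindbrain genes was 39.1 to 54.9 CPM with digit 1 and 751 to 827 CPM with digit 3. The digit 1 libraries thus lacked most cerebellar and hindbrain RNA, and the FTY720 group held 3 such libraries against 1 in the placebo group.

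On GRCm38, the build of the files, the genes lie apart, with Aqp1 (chr6:55336432-55348555) and Slc4a5 (chr6:83219828-83304945) both on chromosome 6 and Prlr (chr15:10177238-10349180) and Enpp2 (chr15:54838901-54952892) both on chromosome 15. Kl is at chr5:150952607-150993817, Folr1 at chr7:101858331-101870788, Sostdc1 at chr12:36314139-36318452, Otx2 at chr14:48657677-48673819 and Clic6 at chr16:92485736-92541243. Overlaps with other genes were read from the GENCODE M21 annotation, which gives these 9 genes the same start and end as the files but differs for Ttr, which is not placed here. Folr1, Otx2 and Enpp2 overlap a gene on the opposite strand (Anapc15, Otx2os1 and Gm26684), and Clic6, Otx2 and Prlr overlap one on the same strand (2410124H12Rik, Gm49154 and Gm21973). The strand setting of the counting is not given in the sources used here, so reads of these pairs may not be told apart.

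The RefSeq promoter table (GRCm38.p6) held 10 windows for 5 of the 10 genes, namely Kl, Slc4a5, Aqp1, Otx2 and Prlr, each running from 250 bases before a transcription start to 50 after. Both strands were searched for 3 motifs. The OTX2 motif TAATCC was found in 1 window of Otx2, 211 bases before that start and as its reverse complement, and 7.06% of all 32817 windows in the table held it. The forkhead motif TGTTTAC was found in 1 window of Prlr, 215 bases before the start, and in 3.65% of all windows. The sequence TATAAA, searched for the TATA box, was found in 1 window of Slc4a5, as its reverse complement, and in 1 of Otx2. Of all windows, 13.6% held it. Its offset from the start was -127 bases in Slc4a5 and -192 bases in Otx2. Whether either match acts as a TATA box was not tested. The 250 bases before the start are shown for Kl and Prlr, the receptors that varied with Enpp2 across mice and whose windows lie outside the exons of their gene. The first Prlr window precedes the start of the gene, and the second lies in an intron and holds TGTTTAC, which is in capitals. The third Prlr window is also in an intron, holds none of the 3 motifs and is not shown:
Kl, chr5:150952357-150952606, plus strand: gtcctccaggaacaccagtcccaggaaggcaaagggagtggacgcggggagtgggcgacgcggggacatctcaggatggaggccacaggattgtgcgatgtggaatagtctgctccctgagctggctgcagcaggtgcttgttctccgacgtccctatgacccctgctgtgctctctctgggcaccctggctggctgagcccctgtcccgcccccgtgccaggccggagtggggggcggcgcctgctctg
Prlr, chr15:10176988-10177237, plus strand: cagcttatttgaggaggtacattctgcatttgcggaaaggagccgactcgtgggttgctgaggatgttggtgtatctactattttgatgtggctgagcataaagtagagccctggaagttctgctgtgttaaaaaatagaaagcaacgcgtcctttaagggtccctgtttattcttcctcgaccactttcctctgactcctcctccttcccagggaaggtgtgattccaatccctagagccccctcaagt
Prlr, chr15:10223656-10223905, plus strand: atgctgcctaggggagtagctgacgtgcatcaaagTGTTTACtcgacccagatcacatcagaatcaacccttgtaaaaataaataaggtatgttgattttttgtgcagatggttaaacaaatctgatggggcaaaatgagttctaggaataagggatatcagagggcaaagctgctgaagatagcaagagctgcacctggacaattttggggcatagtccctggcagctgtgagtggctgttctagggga

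Levels between genes were compared per length, as FPKM, which divides counts by gene length and library total. Ttr, the thyroid hormone and retinol carrier of cerebrospinal fluid, had the highest level at 314 to 582 FPKM over the 10 mice. It took 0.0388% to 0.0695% of all counts of a library. Enpp2, which encodes autotaxin, the enzyme that makes lysophosphatidic acid, followed at 71.0 to 104 FPKM. Neither range overlapped that of the next gene in the order.

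The other 8 genes were far lower and formed a graded series in which each overlapped the next. By median over mice the order was Clic6 (3.67 FPKM), a member of the chloride intracellular channel family, then Kl (2.50), the FGF23 co-receptor Klotho, then Folr1 (2.36), the folate receptor that carries folate across the epithelium. Below them stood Sostdc1 (2.27), a secreted antagonist of BMP and Wnt signaling, Aqp1 (1.75), the water channel of the apical membrane, and Otx2 (1.54), a homeobox transcription factor needed to form the tissue. Slc4a5, a sodium bicarbonate cotransporter, and Prlr, the prolactin receptor, had the lowest medians at 0.698 and 0.685 FPKM. In counts, the genes ranged from 37 to 97 per mouse for Slc4a5 to 6677 to 11014 for Ttr.

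Other markers of the same epithelium were present at low level in every mouse. The potassium channel genes Kcnj13 and Kcne2 were at 1.24 to 3.04 and 2.61 to 4.07 CPM, the tight junction gene Cldn2 at 1.31 to 4.06, Tmem72 at 3.01 to 7.20, and F5, coagulation factor V, at 4.41 to 9.52. They were picked from 38 tested genes of that epithelium, whose mean levels ran from 0.561 (Cldn3) to 1416 CPM (Atp1b1). Their correlations across mice with the mean standardized log2 CPM of the 10 ran from -0.46 (Kcnj13) to 0.52 (Cldn2). Transcripts of other markers were thus present, and their level alone does not show which cells made them. Genes of the glands next to the brain were low. The summed level of 8 pituitary genes was 3.54 to 7.72 CPM, with Prl at 0 to 0.523 and Gh at 0 to 1.25 CPM. That of 6 pineal genes was 0.920 to 2.88 CPM, with Gngt1 at 0 in every mouse. Blood was more variable, with a summed level of 5 red cell genes from 2.97 to 40.2 CPM, highest in P3-612.

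**Figure D1:**
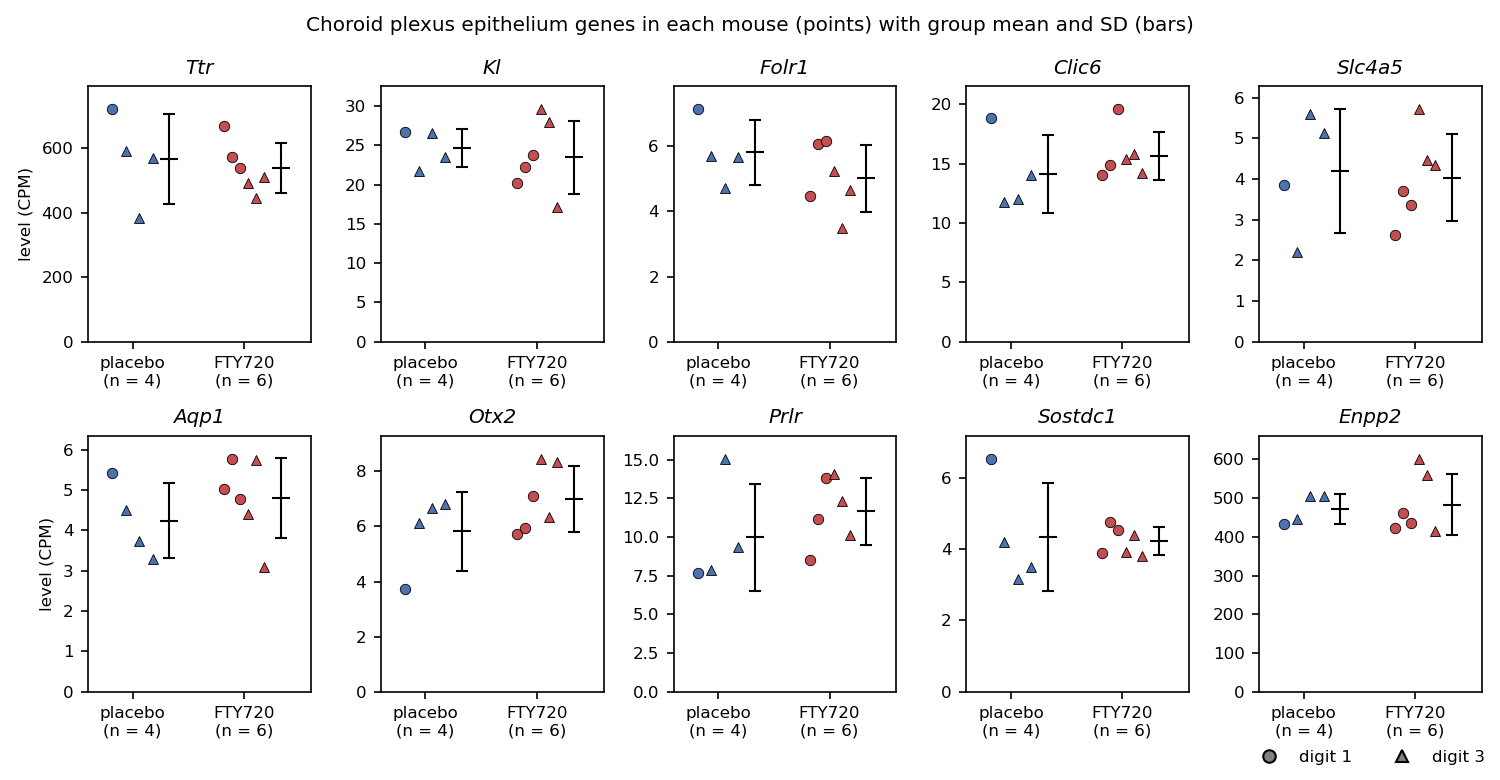
Level (CPM, linear axes from 0) of each gene in each mouse by treatment, with circles for digit 1 and triangles for digit 3. Black bars give the group mean and SD. The placebo and FTY720 points overlap for all 10 genes, and the placebo mouse of digit 1 is the highest of all mice for Ttr, Folr1 and Sostdc1 and the lowest for Otx2.

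Spread between mice was ordinary for this brain RNA. The SD of log2 CPM over the 10 mice ran from 0.18 for Enpp2 to 0.44 for Slc4a5, against a median of 0.30 over all genes tested. Ranked among all genes by this SD, the 10 stood between the 19.7th and the 74.0th percentile, with a median of the 46.6th. The highest mouse exceeded the lowest by 1.45-fold for Enpp2, 1.87-fold for Ttr and 2.60-fold for Slc4a5, where the median gene showed 1.91-fold. Counting error alone would give an SD of 0.17 for Slc4a5, Aqp1 and Sostdc1 and 0.015 for Ttr, so it was a large share of the spread for Sostdc1 (SD 0.28) and a small one for Ttr (SD 0.27). The summed level of the 10 genes stayed between 968 and 1233 CPM, and of the 8 without Ttr and Enpp2 between 64.1 and 86.8 CPM.

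No single mouse stood high or low for the tissue as a whole. F3-609 was the highest mouse for 4 genes and P1-623 for 3. P1-623 was also the lowest for 2, Otx2 and Prlr, and P3-904, the highest for Prlr, was the lowest for Ttr and Sostdc1. F3-908 was the lowest for Kl, Enpp2 and Aqp1, and P3-612 for Clic6 and Slc4a5. In bulk tissue, fewer epithelial cells and less RNA per cell cannot be told apart.

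The series was designed to compare FTY720 with placebo. None of the 10 choroid plexus epithelium genes passed the test between the treatments: 0 of 10 had an unadjusted p under 0.05 in edgeR's quasi-likelihood test, where 2.61% of all 17665 genes did, the smallest p of the 10 being 0.219. With DESeq2 and limma-voom the count was also 0 of 10, beside 550 and 475 of all genes. After Benjamini-Hochberg adjustment 0% of all genes passed, and each of the 10 had an adjusted p of 0.9999. Of the 10, 5 were higher and 5 lower with FTY720, with a median log2 fold change of -0.0043 where that of all genes was -0.0030. The median was 0.083 without P1-623 and 0.058 with the digit as a covariate. The 95% intervals of all 10 lay between -0.65 and 0.69 on the log2 scale. No member separated the groups, while 0.81% of all genes did.

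Among the secreted products, Ttr was at 445, 524 and 669 CPM (lowest, median and highest) in the FTY720 mice and at 385, 570, 592 and 720 CPM in the placebo mice. The placebo mice thus spanned the whole FTY720 range. Means were 538 ± 77.5 (SD, n = 6) and 567 ± 138 CPM (SD, n = 4), a log2 fold change of -0.08 (SE 0.16, 95% interval -0.43 to 0.28, two-sided exact permutation p = 0.776). Enpp2 was at 416, 448 and 601 CPM with FTY720 and at 433, 445, 505 and 506 with placebo, a log2 fold change of 0.03 (SE 0.13). Oligodendrocytes also make Enpp2, and the summed level of their list was 5735 to 6651 CPM with FTY720 and 6528 to 7605 with placebo, 4 of its 10 genes being lower at an unadjusted p under 0.05 (adjusted p 0.9999). Their part in the Enpp2 level was not tested. Sostdc1 was at 3.82 to 4.77 CPM with FTY720 and 3.17 to 6.54 with placebo (log2 fold change -0.04, SE 0.21).

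Among the transporters and channels, Clic6 had a log2 fold change of 0.15 (SE 0.16), Aqp1 of 0.18 (SE 0.21) and Slc4a5 of -0.06 (SE 0.28). Clic6 was at 0.32 without P1-623 (unadjusted p 0.0514) and 0.067 without P3-612, and Aqp1 at 0.32 without P1-623 and 0.077 without P3-907. The widest interval was that of Slc4a5, from -0.65 to 0.54, and its value was -0.27 without P3-612 and 0.11 without P3-904. Its placebo mice alone ran from 2.19 to 5.59 CPM.

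Among the receptors, Folr1 was lower by 0.21 on the log2 scale (SE 0.19, unadjusted p 0.294) and Kl by 0.07 (SE 0.15). Without P1-623 Folr1 was at -0.093 (unadjusted p 0.662). Prlr was at 8.49, 11.7 and 14.0 CPM (lowest, median, highest) with FTY720 and at 7.65, 7.83, 9.35 and 15.03 CPM with placebo. One placebo mouse, P3-904, was the highest of all 10, while the other 3 were among the 4 lowest. The log2 fold change was 0.23 (SE 0.21, unadjusted p 0.314). Without P3-904 it was 0.49 at an unadjusted p of 0.0211 and an adjusted p of 0.776, with 5.51% of all genes then past that threshold.

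Otx2 had the largest difference of the 10 over all 10 mice. It was at 5.73, 6.73 and 8.45 CPM with FTY720 and at 3.73, 6.11, 6.68 and 6.81 CPM with placebo. Only P1-623 lay below the FTY720 range, and the other placebo mice lay within it. The log2 fold change was 0.26 (SE 0.20, 95% interval -0.17 to 0.69, exact permutation p = 0.210). Without P1-623 it was 0.10 (unadjusted p 0.576). With the digit as a covariate it was 0.39, with an unadjusted p of 0.0293 and an adjusted p of 0.365, and 12.8% of all genes then passed the unadjusted threshold.

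Because the digit moved with brain region, the treatments were also compared among the 6 digit 3 mice, 3 of each. Again 0 of 10 genes had an unadjusted p under 0.05, beside 7.27% of all genes. DESeq2 and limma-voom called 0 of 10 as well. Of the 10, 8 were higher and 2 lower with FTY720, with a median log2 fold change of 0.17 (all genes -0.0049). An exact permutation test of 3 against 3 cannot go below p = 0.1.

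Clic6 was the 1 gene whose groups did not overlap there, at 14.2, 15.4 and 15.8 CPM with FTY720 and 11.7, 12.04 and 14.0 CPM with placebo. The highest placebo mouse, P3-907, was just below the lowest FTY720 mouse, F3-908. The log2 fold change was 0.27 (SE 0.14, edgeR adjusted p 0.654, exact permutation p = 0.1), and 12.9% of all genes showed such a separation. Among the digit 1 mice the order was not kept, since placebo mouse P1-623 at 18.8 CPM lay above 2 of the 3 FTY720 mice. Without P3-904, the placebo mouse with the highest Prlr and the lowest Ttr, 2 of the 10 passed the unadjusted threshold among the digit 3 mice, Ttr (log2 fold change -0.27) and Prlr (0.50), and so did 21.7% of all genes. A fit of the interaction of treatment with digit rests on P1-623 as the 1 digit 1 placebo mouse, which is assumed to vary like the other groups. It gave each of the 10 an adjusted p of 0.9999 in edgeR and the smallest unadjusted p among them, 0.0499, to Sostdc1, so little can be read from it about a difference between the digits.

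**Figure D2:**
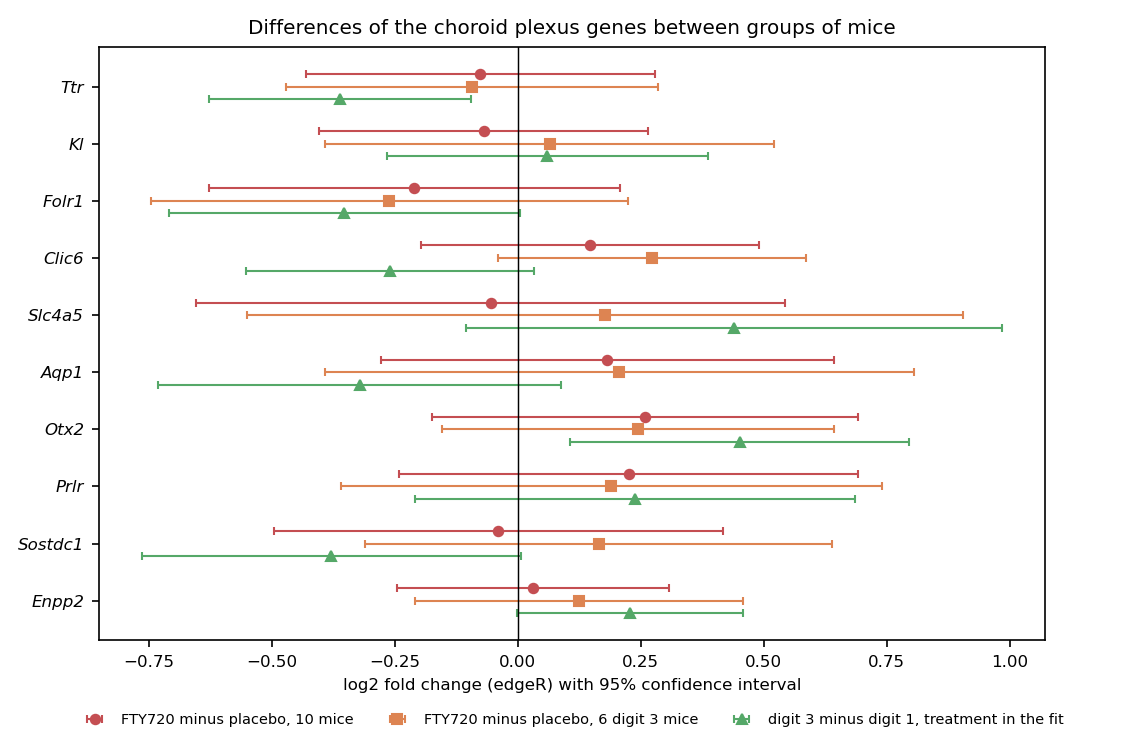
Log2 fold change with 95% interval of each gene for FTY720 against placebo in 10 mice (circles), the same in the 6 digit 3 mice (squares), and digit 3 against digit 1 (triangles). Every interval of both treatment comparisons spans 0, and those of Ttr (below) and Otx2 (above) do not span 0 between the digits.

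Between the digits, with treatment in the fit, 1 of the 10 genes passed an adjusted p of 0.05, whereas 28.4% of all genes did. That gene was Ttr, which was lower with digit 3, as were 14.4% of all genes, and none of the 10 passed among the higher genes (13.9% of all). The count of 1 in 10 lies below the background share, and the difference between the shares was not tested. No member's mice separated fully by digit, against 14.2% of all genes. Of the 10, 5 were higher and 5 lower, with a median log2 fold change of -0.10 (all genes -0.011). Without P1-623 the median was 0.012.

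Ttr was at 538, 573, 669 and 720 CPM in the digit 1 mice and at 385, 500 and 592 CPM (lowest, median, highest) in the digit 3 mice. The ranges overlapped between 538 and 592 CPM, where 2 mice of each digit lay. Means were 625.1 ± 84.2 (SD, n = 4) and 498.6 ± 77.2 CPM (SD, n = 6), a log2 fold change of -0.36 (SE 0.12, 95% interval -0.63 to -0.09, edgeR adjusted p 0.0440, two-sided exact permutation p = 0.0476 without treatment as a covariate). The call was a narrow one: it was lost without F1-622, F1-624, F3-609, F3-612, P1-623 or P3-907, with adjusted p from 0.0545 to 0.205. It was also lost with no covariate (0.0766), with the leading digit of the mouse number added (0.0822), with upper-quartile scaling (0.0586) and with limma on log2(FPKM + 0.1) and log2(FPKM + 1) (0.0922 and 0.0905). Among the FTY720 mice alone the fold change was -0.28 (adjusted p 0.139). The part of the differing cerebellar and hindbrain RNA in this result was not tested.

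Otx2 differed in the other direction, at 3.73, 5.73, 5.94 and 7.12 CPM with digit 1 and 6.11, 6.75 and 8.45 CPM with digit 3. It did not pass (log2 fold change 0.45, SE 0.16, adjusted p 0.0505), although it did with DESeq2 (adjusted p 0.0336), as did 32.4% of all genes. Only F1-918 of the digit 1 mice lay within the digit 3 range. Folr1 (-0.35), Sostdc1 (-0.38), Aqp1 (-0.32) and Clic6 (-0.26) were below 0 on the log2 scale and Enpp2 (0.23), Prlr (0.24), Slc4a5 (0.44) and Kl (0.06) above 0. Their adjusted p ran from 0.125 to 0.792. Without P1-623, the 1 placebo mouse of digit 1, the fold change was -0.12 for Sostdc1 (unadjusted p 0.548), -0.10 for Clic6 (0.553), 0.12 for Prlr (0.645) and 0.29 for Otx2 (0.125). As each mouse was left out, the values ran from 0.12 to 0.38 for Prlr, from 0.16 to 0.31 for Enpp2 and from -0.48 to -0.21 for Aqp1. In edgeR Enpp2 passed without F3-908 (adjusted p 0.0274), Slc4a5 without P3-612 (log2 fold change 0.54, adjusted p 0.0298), and Otx2 without F1-918 or F3-612 (adjusted p 0.0371 and 0.0301). In the same order, 28.7%, 33.5%, 20.9% and 19.9% of all genes passed without these mice.

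Other gene groups of the same fluid space were compared between the digits as well, beside the 28.4% of all genes that passed. Of 9 tested genes for proteins secreted into cerebrospinal fluid, 5 fell and 1 rose with digit 3. The lipid carrier gene Apoe fell by 1.18 on the log2 scale, the protease inhibitor gene Cst3 by 0.88, the insulin-like growth factor carrier gene Igfbp2 by 0.68 and Clu, which encodes clusterin, by 0.64, while Vegfa, an angiogenic factor, rose by 0.35. All of these are also made by other brain cells. Of 10 ependymal genes, which mark the ciliated cells that line the ventricles, 5 fell, and the median log2 fold change was -0.64. Their summed level was 32.5 to 41.3 CPM with digit 1 and 21.8 to 32.6 CPM with digit 3. Whether ependymal RNA had a part in the Ttr difference was not tested. Of 11 meningeal and stromal genes, 2 rose, Slc47a1 by 1.03 and Ogn by 0.53, and the median was -0.03.

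Of 38 other choroid epithelium genes tested, 2 rose and 3 fell between the digits, with a median of 0.0099. The ion transporter gene Slc12a2, which encodes the sodium, potassium and chloride cotransporter NKCC1, rose from 99.9 ± 10.1 to 163 ± 13.9 CPM (log2 fold change 0.74, edgeR adjusted p 0.000256), and the serotonin receptor gene Htr2c rose by 0.31. The keratin gene Krt8 fell by 1.14, the homeobox gene Msx1 by 0.65 and the protease inhibitor gene Spint2 by 0.50. Slc12a2 and Htr2c are widely expressed outside the plexus.

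Between the treatments, the same 38 genes had a median log2 fold change of -0.08, with 1 higher and 2 lower at an unadjusted p under 0.05 (adjusted p 0.9999 for each), where 2.61% of all genes were under it. Slc4a10, a sodium bicarbonate transporter also found in neurons, was at 291 ± 26.9 CPM with FTY720 and 241 ± 27.1 with placebo. Slc4a2, an anion exchanger, was at 33.8 ± 4.54 and 41.1 ± 3.07 CPM, and 2900040C04Rik was at 0.693 ± 0.238 and 1.28 ± 0.615 CPM. Of the secreted list, Vegfa was lower by 0.35 on the log2 scale at an unadjusted p of 0.0430. Foxj1, the regulator of ependymal cilia, was lower by 0.38 and the stromal genes Foxc1 and Slc6a13 by 0.35 each (unadjusted p 0.0451, 0.0321 and 0.0481, adjusted p 0.9999). None of the 10 tested genes of the phosphate and Klotho axis had an unadjusted p under 0.05.

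Of that axis, 3 of 10 rose between the digits, a share near that of all genes called (28.4%). Slc20a2 was at 8.24 ± 1.43 CPM (SD, n = 4) with digit 1 and 13.9 ± 1.85 CPM (SD, n = 6) with digit 3, a log2 fold change of 0.73 (edgeR adjusted p 0.00463) with no overlap. Enpp1, which makes the calcification inhibitor pyrophosphate, rose by 0.64 and Fgfr1, the receptor that pairs with Klotho, by 0.30. Kl was at 20.2, 22.2, 23.7 and 26.7 CPM with digit 1 and 17.2, 25.0 and 29.6 CPM with digit 3, so that the digit 3 mice spanned the digit 1 range (log2 fold change 0.06, SE 0.15).

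**Figure D3:**
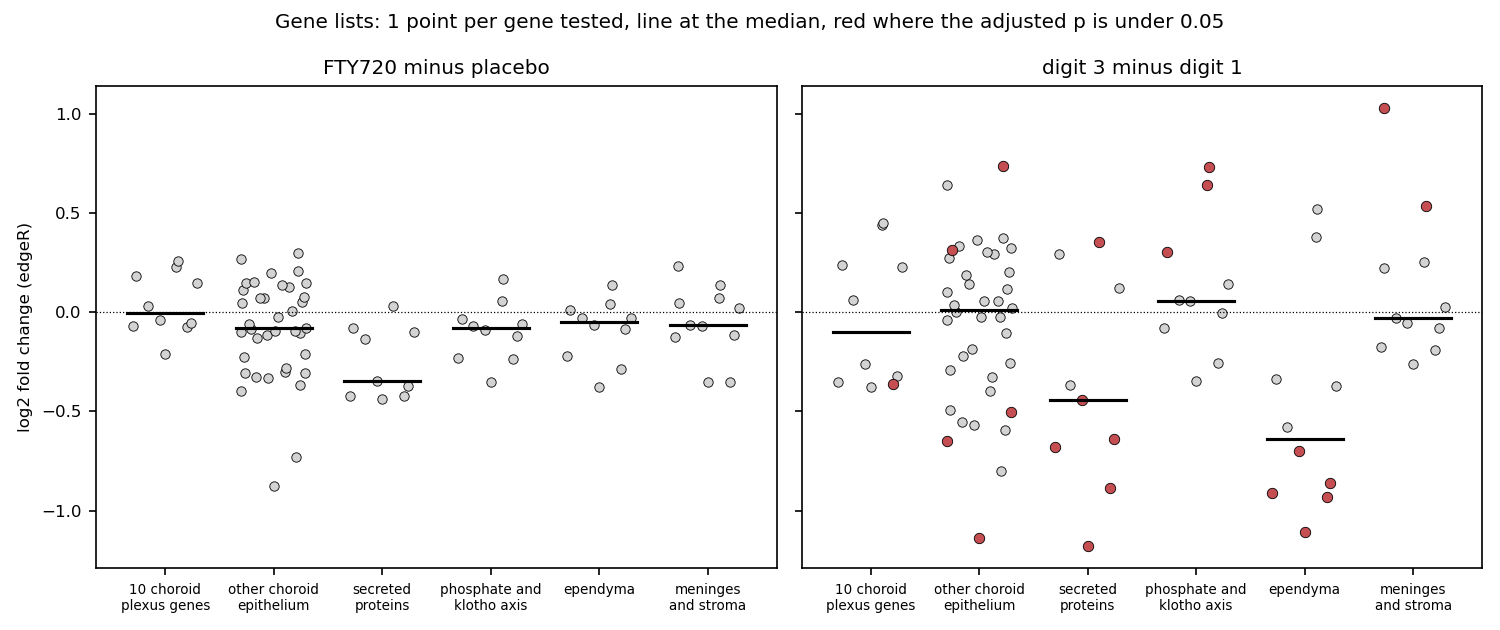
Log2 fold change of each gene tested, by list, for FTY720 against placebo (left) and digit 3 against digit 1 (right), with lines at list medians and red points for an adjusted p under 0.05. No point is red for the treatment, and for the digit 1 of the 10 choroid plexus genes is red, with 5 of 38 other choroid genes, 6 of 9 secreted proteins and 5 of 10 ependymal genes.

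The leading digit of the mouse number, 9 or 6, followed sex-linked genes: with 9, Xist was higher and 4 genes of the Y chromosome were lower. With treatment and digit in the fit, 0 of the 10 choroid plexus genes passed an adjusted p of 0.05 in edgeR, and neither did most genes (0.034% of all, 6 genes). At an unadjusted p under 0.05, 1 of 10 was counted beside 1.62% of all genes. It was Aqp1, at 3.10, 3.30, 3.74 and 4.79 CPM in the 4 mice with 9 and at 4.40, 5.23 and 5.77 CPM (lowest, median, highest) in the 6 mice with 6. Only F1-918 among the former reached the range of the latter. The log2 fold change was -0.40 (SE 0.17, adjusted p 0.9999), and the unadjusted p of 0.0348 ranged from 0.0278 to 0.103 as each mouse was left out. The exact permutation test, which took no account of treatment or digit, gave p = 0.0190. Prlr, the receptor of a sex-biased hormone axis, was at 12.1 ± 2.77 CPM with 9 and 10.2 ± 2.65 CPM with 6 (log2 fold change 0.28, SE 0.20, unadjusted p 0.173). It was 0.12 without P3-904 and 0.47 without F3-908 (unadjusted p 0.0267, adjusted 0.855).

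The 10 genes did not rise and fall as 1 block from mouse to mouse. Over the 45 pairs, the median Pearson correlation of log2 CPM across the 10 mice was 0.081, from -0.83 (Ttr and Prlr) to 0.77 (Kl and Enpp2), and 26 pairs were positive. Of the 45 pairs, 10 exceeded 0.5, and among all pairs of tested genes 18.4% did, with a median of -0.001. Within the 6 digit 3 mice the median was 0.089, and on residuals after treatment and digit it was 0.13. As each of the 10 mice was left out, the median ran from 0.046 (without P3-612) to 0.15 (without F3-612). These points share library depth and dissection, and the correlations are given as descriptions.

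Grouped after their values were seen, the 5 genes above 0 between the digits (Kl, Enpp2, Slc4a5, Prlr and Otx2) had a median correlation of 0.53 among themselves over 10 pairs, and the 5 below 0 (Ttr, Folr1, Sostdc1, Clic6 and Aqp1) of 0.48. Across the 25 mixed pairs the median was -0.31. Once treatment and digit were removed, these medians were 0.51, 0.25 and 0.0053. Grouping by the sign of the digit difference builds part of this pattern into the values over 10 mice. On the residuals 13 of the 25 mixed pairs were positive, and they ran from -0.91 (Ttr and Prlr), -0.70 (Aqp1 and Otx2) and -0.67 (Otx2 and Sostdc1) to 0.56 (Aqp1 and Enpp2) and 0.63 (Kl and Aqp1). Within digit 3 the medians were 0.53, 0.11 and -0.14.

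Kl and Enpp2 were the closest pair, with r = 0.77 over 10 mice, 0.93 on the residuals and 0.95 within digit 3. F3-609 and F3-612 were highest for both (29.6 and 27.9 CPM of Kl, 601 and 561 CPM of Enpp2), and F3-908 was lowest for both (17.2 and 416 CPM). P1-623, with 26.7 CPM of Kl at 433 CPM of Enpp2, and F1-918, with 23.7 at 435, had more Kl than several mice with more Enpp2. Slc4a5 went with Enpp2 (r = 0.67) and with Prlr (0.62), Clic6 and Aqp1 went with Sostdc1 (0.70 and 0.68), and Otx2 ran against Sostdc1 (-0.73). Within digit 3 these were 0.56 and 0.79 for Slc4a5, 0.42 and 0.69 for Clic6 and Aqp1, and -0.14 for Otx2 and Sostdc1.

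Ttr, the most abundant of the 10, was compared with each of the other 9 by permutation. Prlr alone passed after adjustment over the 9, with r = -0.83 (permutation p = 0.0021, adjusted 0.0189) and Spearman's rho = -0.88 (permutation p = 0.00154, adjusted 0.0139). P3-904, with the lowest Ttr (385 CPM), had the highest Prlr (15.03 CPM), and P1-623, with the highest Ttr (720 CPM), had the lowest Prlr (7.65 CPM). Within digit 3 the correlation was -0.89 (exact permutation p = 0.0167, adjusted 0.15). Without P1-623 and P3-904, the 2 mice farthest from the median of Ttr, r was -0.70 and rho -0.76 over 8 mice (exact permutation p = 0.0540 and 0.0368, adjusted 0.288 and 0.138). Over these 8 mice the relation kept its direction and did not pass after adjustment.

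The other 8 relations with Ttr did not pass, with adjusted permutation p from 0.127 to 0.392 for r. Sostdc1 (0.63) and Folr1 (0.58) were positive, and Otx2 (-0.62), Slc4a5 (-0.61) and Enpp2 (-0.59) negative. Without P1-623 and P3-904, Sostdc1 was at -0.16 (rho -0.048), so that its positive value rested on those 2 mice. Among the digit 3 mice Sostdc1 was at 0.39, Folr1 at 0.62 and Otx2 at -0.017.

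**Figure D4:**
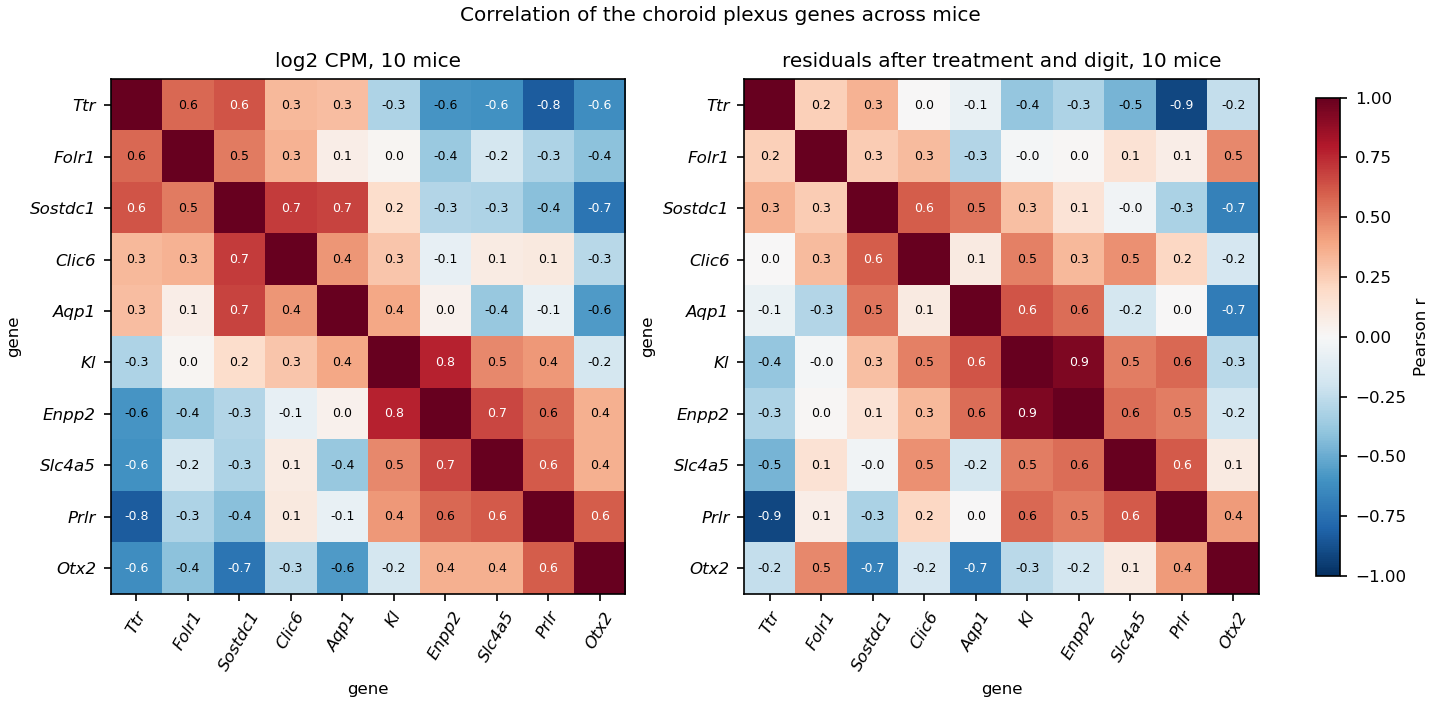
Pearson correlation of each pair of genes across the 10 mice (left) and on residuals after treatment and digit (right), on a scale from -1 (blue) to 1 (red). Genes below 0 between the digits come first. The median of the 25 mixed pairs is -0.31 at left and 0.0053 at right, and Kl and Enpp2 (0.77 and 0.93) and Ttr and Prlr (-0.83 and -0.91) are strong in both.

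**Figure D5:**
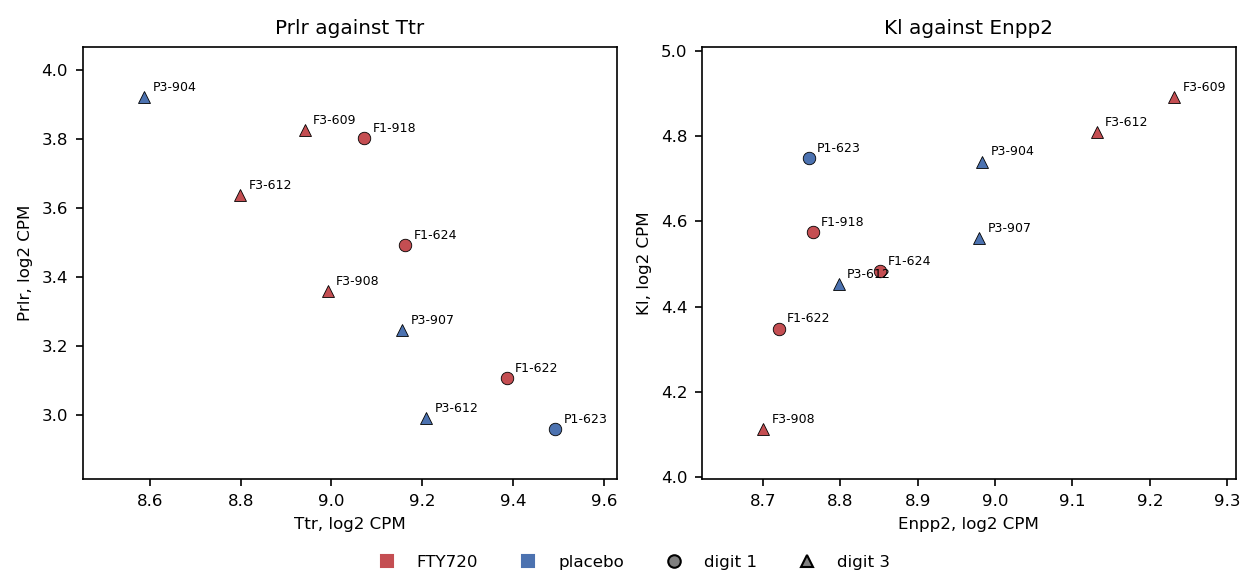
Log2 CPM of Prlr against Ttr (left) and of Kl against Enpp2 (right), 1 point per mouse, coloured by treatment and shaped by digit. P3-904 has the most Prlr and the least Ttr, and P1-623 the reverse. Kl and Enpp2 are both highest in F3-609 and F3-612 and lowest in F3-908, while P1-623 and F1-918 have more Kl than several mice with more Enpp2.

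The tested genes whose levels were most like the mean standardized level of the 10 across mice were Cyp2t4 (r = 0.90), Tbccd1 (0.89), Gm42944 (0.89), Sp110 (0.87), Catsperd (0.85), Gm16244 (0.84), Mak (0.84), Gm38413 (0.83), C7 (0.83) and Cdnf (0.82). None of them is on the list of other choroid epithelium genes. They were picked as the highest of 17655 genes over only 10 mice, so the picking accounts for part of the size of these values. Their mean levels ran from 0.584 (Gm16244) to 15.6 CPM (Tbccd1), with C7 at 0.635, Sp110 at 0.798 and Gm42944 at 0.966 CPM. The mean they were set against also combines genes that ran against each other, such as Ttr and Prlr (r = -0.83). The 38 genes of that list had a median correlation of 0.080 with the mean of the 10, from -0.62 (Wfdc2) to 0.68 (Steap1), and 5 of the 38 exceeded 0.5. The lowest of these 5, Cldn2 (0.52), ranked 817th of all 17655 other tested genes, and F5 (0.49) ranked 1138th. Among all these genes a correlation of 0.5 thus fell between those ranks, and the difference between the shares was not tested. The median over all other tested genes was -0.033.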

How the data were processed

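Brain RNA of 10 Slc20a2-HO mice (6 FTY720, 4 placebo) was sequenced from NEBNext Ultra libraries. The values used are raw counts for each gene in each mouse, deposited without normalization, and FPKM values, which the authors made from counts, gene length and library total. Base calling used Casava 1.8 and alignment to GRCm38 used Hisat2 2.0.5. The submitters' processing notes also name fastp, featureCounts 1.5.0-p3 and DESeq2 1.20.0. The annotation release and the strand setting are not given in the sources used here. All columns were matched to a mouse by name, and the mice were grouped by the treatment in the labels. The mice are separate animals. The study's methods state that littermates were used, and the litter of each mouse is not given.

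Counts (14772745 to 18303981 per mouse) passed filterByExpr and TMM scaling before the quasi-likelihood test of edgeR 4.0.16 in R 4.3.3, with Benjamini-Hochberg adjustment over all 17665 genes. The treatment was tested with no covariate, the digit with treatment, and the leading digit of the mouse number with treatment and digit. The filter on the 6 digit 3 mice was made on these mice alone (17656 genes). Each standard error was derived from the fold change and its F value. Single genes were compared by exact permutation of mean log2 CPM (prior count 2), with no covariate, over 210 arrangements, or 20 for 3 against 3. Correlations with Ttr used 100000 resamples over 10 mice and all 720 pairings of the 6 digit 3 mice. Alternatives were DESeq2 1.42.0, limma-voom (limma 3.58.1), RLE and upper-quartile scaling, other filters on low counts, limma on log2(FPKM + 0.1) and log2(FPKM + 1), other covariates and each mouse left out; leaving out mice for the leading digit, and the interaction, were chosen after seeing the data.

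The 10 genes and the gene lists were chosen with earlier results of these data known. Genes named besides the 10 are Slc20a2, list genes past the threshold (at most 6 a list, by smallest p), the 10 genes most like the 10, defining markers of other cell types, Gabra6 and Hoxb5. Not every such gene is given a value here.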

Additional observations from a re-analysis of the deposited data

Results flagged for a closer look

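In 40 groups of mice (the 10 genes in the groups by treatment and by digit), the highest or lowest mouse was compared with the others by its gap relative to the range of the group, and 1 stood apart. Clic6 in the FTY720 mice was highest in F1-918, at 19.6 CPM, and the gap to the next mouse was 0.67 of the range of the 6 mice. Chance alone flags about 1 in 20 such groups.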

How the results depend on the processing

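Over the results and alternatives run, 870 comparisons kept their direction and their side of the threshold or, for values with no test, moved by less than a set limit. This limit was 0.113 on the log2 scale for medians and 0.25 for correlations. Of the rest, 25 moved past the threshold, 20 fell short of it, 32 changed sign and 19 values moved. Rises and falls in the count of genes called are among the 25 and the 20. No alternative gave any of the 10 genes an adjusted p under 0.05 for FTY720 against placebo. The number at an unadjusted p under 0.05 was 1 (Otx2) with the digit as a covariate, beside 12.8% of all genes. With both digits it was 1, beside 11% of all genes. As each mouse was left out it was 0 to 1 (Prlr, without P3-904), beside 1.56% to 5.51% of all genes. The median log2 fold change of the 10 was 0.0579 with the digit, 0.0261 with the leading digit and 0.0614 with both, and -0.0308 to 0.0833 as each mouse was left out. Between the digits it was -0.166 to 0.0121 as each mouse was left out, and for the leading digit -0.102 to 0.0309. For FTY720 against placebo the sign changed for Sostdc1 and Slc4a5: Sostdc1 was 0.0261 with limma-voom, 0.0140 on log2(FPKM + 0.1) and 0.00154 on log2(FPKM + 1), and Slc4a5 was 0.0321 with the digit, 0.0362 with the leading digit and 0.0774 with both. It also changed for 5 genes as each mouse was left out, which gave -0.222 to 0.0648 for Ttr, -0.147 to 0.00544 for Kl, -0.267 to 0.114 for Slc4a5, -0.164 to 0.225 for Sostdc1 and -0.0421 to 0.0752 for Enpp2.

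Among the digit 3 mice, leaving out each mouse gave 0 to 2 genes past the unadjusted threshold, beside 2.13% to 21.7% of all genes. It gave a median log2 fold change of 0.0504 to 0.261, and -0.266 to 0.0270 for Ttr, -0.0848 to 0.275 for Kl, -0.129 to 0.400 for Slc4a5 and -0.0273 to 0.408 for Aqp1. Between the digits, 2 genes passed with DESeq2, RLE scaling or at least 10 counts in every mouse (Ttr and Otx2). The shares of all genes there were 32.4%, 28.4% and 30.7%. With no covariate, with treatment and leading digit as covariates or in the FTY720 mice alone (median 0.0361), 0 passed, beside 20.9%, 24.2% and 18.9% of all. As each mouse was left out, 0 to 2 passed (Ttr, Otx2, Enpp2 or Slc4a5), beside 14.4% to 33.5% of all. Upper-quartile scaling and both FPKM settings called Otx2 in place of Ttr, beside 28.2%, 27.2% and 27.3% of all. Kl ranged from -0.0412 to 0.172. For the leading digit, Folr1 was -0.0317 with treatment alone and -0.00995 with no covariate, Clic6 was -0.000813 and -0.0163, and leaving out each mouse gave -0.0464 to 0.140 for Folr1, -0.0905 to 0.150 for Clic6 and -0.0846 to 0.362 for Slc4a5. Without the 2 mice farthest from the Ttr median, the correlation with Ttr changed sign for Sostdc1 (from 0.63 to -0.16), Clic6 (0.32 to -0.40) and Aqp1 (0.31 to -0.0080), and within digit 3 for Clic6 (-0.070) and Aqp1 (-0.19) and on residuals for Aqp1 (-0.069); these are not among the changes of sign counted above. Beyond the fewer mice or added terms of each fit, the cause was not tested.

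No paired analysis was possible because the treatment groups share only 1 mouse number, 612. Depth limits Slc4a5, Aqp1, Sostdc1, Folr1 and Otx2 most, which had 37 to 142 counts per mouse. The digit 1 mice held 1 placebo mouse, and the treatment was not tested within digit 1 alone. The labels do not explain the digit, and dissection cannot be told apart from it.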
